A study of Rattus norvegicus with 10 samples.

Results

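The sodium pump (Na,K-ATPase) and its small partner proteins were described in the renal cortex of PCK rats through 6 genes, taken from the 32545 genes of the deposited table by symbol: *Atp1b1*, *Atp1b3*, *Fxyd2*, *Fxyd4*, *Fxyd5* and *Atp12a*. Each symbol occurs once. The pump sits in the basolateral membrane of tubule cells, where it exports sodium in exchange for potassium and so powers sodium reabsorption along the whole nephron. It is built from a catalytic alpha subunit and a glycosylated beta subunit that is needed for folding and for delivery to the membrane, and a single-span protein of the FXYD family, named for a shared sequence motif, sets its affinity for ions. *Atp1b1* and *Atp1b3* encode beta subunits. *Fxyd2* encodes the gamma subunit of the kidney pump, *Fxyd4* encodes CHIF of the collecting duct, and *Fxyd5* encodes dysadherin, which also affects cell adhesion. *Atp12a* encodes the catalytic subunit of the non-gastric H,K-ATPase, a relative of the pump that exchanges protons for potassium in collecting duct and distal colon.

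RNA came from 5 male and 5 female PCK rats, with 1 library per rat. All 10 rats carried the *Pkhd1* mutation of this strain, a model of autosomal recessive polycystic kidney disease, and no treatment was given. The labels name the tissue as kidney and an age of 12 to 14 weeks, while the study's methods give snap-frozen cortex and 10 to 12 weeks, and describe the rats as littermates from a pair of litters. Non-cystic rats were not analysed here, so each comparison is between the sexes within cystic kidneys. Expression is given as FPKM, fragments per kilobase of gene length, scaled to library size, which lets levels of different genes be compared per length. Males had 13912569 to 20285911 reads on genes and females 14963924 to 19556707. Cortex genes such as *Slc34a1* of the proximal tubule (824 to 1658 FPKM) and *Umod* of the thick ascending limb (877 to 1502 FPKM) were high in all rats. Female 2 stood apart from the other libraries, with 26.8% of its reads on mitochondrial genes against 14.3% to 19.1% elsewhere and with RNA of urothelial genes, and results that rest on it are given with and without it.

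Females had a higher mean than males in 4 of the 6 genes and a lower mean in 2, and none of the 6 differed between the sexes at an adjusted p of at most 0.05 (limma on log2(FPKM + 0.1), with adjustment over the 17631 genes whose mean reached 0.1 FPKM). The largest shifts were those of *Atp12a*, *Fxyd4* and *Fxyd2* on the higher side and *Fxyd5* on the lower side, while both beta subunit genes were nearly level between the sexes. The unadjusted limma p was under 0.05 for 1 of the 6 genes, *Atp12a*, where 15.7% of all genes tested had such a p. limma-voom on recovered reads called none of the 6 either. Over all genes tested, 2.40% had an adjusted p of at most 0.05, and adding a log2 fold change of at least 1 left 0.618% higher and 0.698% lower in females. The FPKM ranges of males and females overlapped in each of the 6 genes, against 5.10% of all genes tested whose ranges did not. The median log2 fold change of the 6 genes, females over males, was 0.25, beside −0.01 over all genes tested. In bulk tissue, a change in the number of cells of a type and a change in RNA per cell cannot be told apart.

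**Figure D1:**
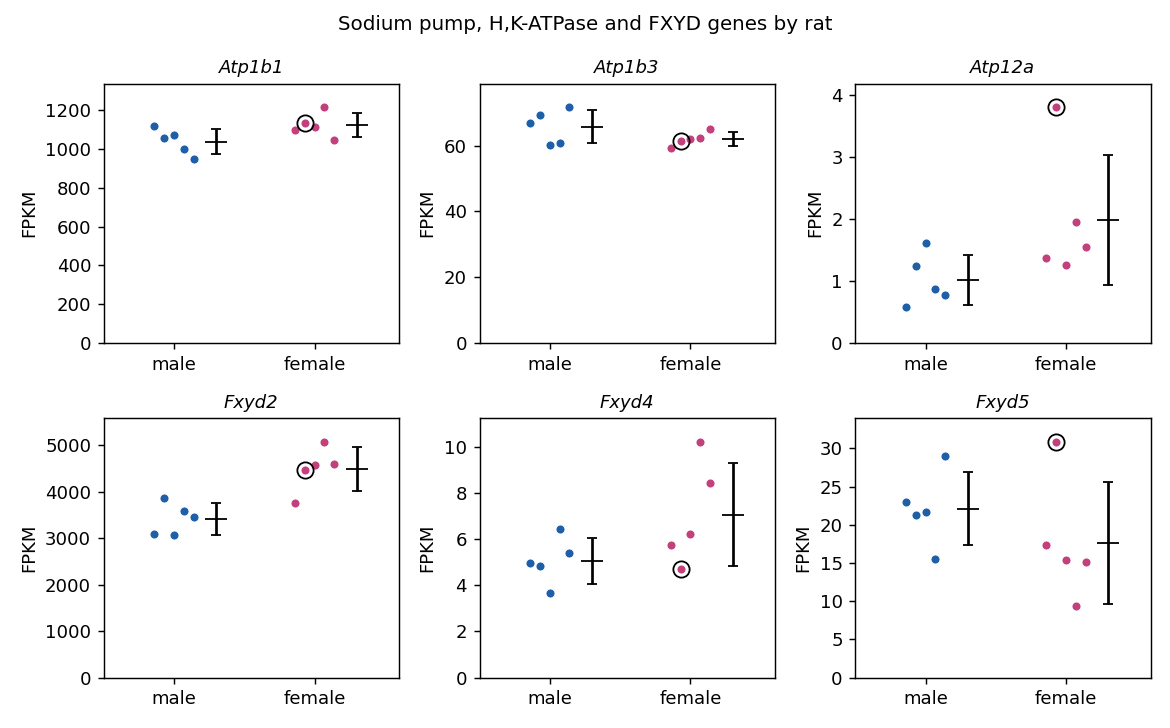
Each panel plots FPKM of 1 gene from 0 upwards, with 1 point per rat (replicates 1 to 5 from left to right, males blue and females pink), the mean and SD as a bar beside them and female 2 ringed. *Atp1b1* and *Atp1b3* lie in narrow bands in both sexes, 4 of 5 females lie above the highest male in *Fxyd2*, and female 2 is the highest rat in *Fxyd5* and *Atp12a*.

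*Fxyd2* (ENSRNOG00000016469, chromosome 8, 49710477 to 49716955 on Rnor_6.0, plus strand) had the highest level of the 6 genes and ranked 12 of the 17631 genes tested by mean FPKM. Males 1 to 5 had 3090.3, 3859.5, 3079, 3587 and 3447 FPKM, and females 1 to 5 had 3753, 4465, 4579, 5069 and 4588 FPKM. All females but female 1 lay above the highest male, so the ranges overlapped through male 2 and female 1 alone. Males averaged 3413 ± 334 FPKM and females 4491 ± 474 FPKM (SD, n = 5), 31.6% higher in females (p = 0.0159, two-sided exact permutation test on the means). With each rat left out in turn, the exact p stayed between 0.00794 and 0.0238 in all 10 tests. In the fit over all genes, limma put the log2 fold change at 0.39 ± 0.19 (standard error, 95% interval −0.02 to 0.81, adjusted p = 0.346), and that p ran from 0.0909 to 0.638 over 21 alternative fits. The difference therefore passed the exact permutation test on the means. It did not pass limma, where the p was 0.0606 before adjustment.

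The level of *Fxyd2* rests on a short gene model. The deposited length is 258 bases, the shortest of the 7 FXYD genes, on a gene that spans 6479 bases. It collected 11448 to 23138 reads per rat, fewer than the 37778 to 57300 reads on *Atp1b1*, whose FPKM was lower. The order of these 2 genes thus depends on the division by length, while the comparison of males with females for 1 gene does not.

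*Atp1b1* (ENSRNOG00000002934, chromosome 13, 82737159 to 82758004, minus strand), the main beta subunit of kidney, ranked 39 by mean FPKM. In males 1 to 5 it stood at 1119, 1057, 1069.9, 1001 and 946 FPKM, and females 1 to 5 had 1097, 1134, 1116, 1216 and 1047 FPKM. Females 1, 3 and 5 fell inside the male range, and females 2 and 4 lay above it. Males averaged 1039 ± 66.5 FPKM and females 1122 ± 61.6 FPKM, 8.04% higher in females (exact permutation p = 0.0873). In limma the log2 fold change was 0.11 (95% interval −0.14 to 0.36, adjusted p = 0.696), which allows a ratio of females to males between 0.910 and 1.28. Without male 1 or without female 5, the exact p was 0.0397 in both tests, the lowest value with a rat left out, where the highest was 0.175. Scaling the libraries by total reads brought the log2 fold change to 0.04, and quantile normalization to 0.00. The gene shares 185 bases with *Nme7* on the other strand, which lay between 13.9 and 32.8 FPKM.

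*Atp1b3* (ENSRNOG00000011501, chromosome 8, 104190032 to 104221342, minus strand), a beta subunit made in many tissues, was the other gene with nearly level values. Males 1 to 5 had 66.9, 69.3, 60.3, 60.9 and 71.7 FPKM, and females 1 to 5 had 59.4, 61.6, 61.9, 62.3 and 65.0 FPKM. The females formed the narrower band, which lay almost wholly inside the male range. Males averaged 65.8 ± 5.08 FPKM and females 62.1 ± 2.01 FPKM (exact permutation p = 0.175), and limma put the log2 fold change at −0.08 (95% interval −0.24 to 0.07, adjusted p = 0.643). That interval allows a ratio of females to males between 0.847 and 1.05.

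Within each library, *Atp1b1* made up nearly all of the RNA of the 4 beta subunit genes. Its share of their summed FPKM was 94.1%, 93.6%, 94.4%, 94.0% and 92.7% in males 1 to 5, and 94.6%, 94.5%, 94.5%, 94.96% and 93.9% in females 1 to 5. The mean share was 93.8 ± 0.653% in males and 94.5 ± 0.368% in females, a difference of 0.723 percentage points that was not past the spread (exact permutation p = 0.0556). *Atp1b3* supplied 4.86% to 7.03% and *Atp1b2*, the beta subunit of glia and muscle, at most 0.350%. The share does not depend on how libraries are scaled. Without male 3 the exact p of the *Atp1b1* share was 0.0317, and without female 5 it was 0.0159. Over all tests with a rat left out, it ran from 0.0159 to 0.127.

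*Fxyd4* (ENSRNOG00000014578, chromosome 4, 149984206 to 149988295, minus strand) was expressed at a low level. In males 1 to 5 it stood at 4.95, 4.82, 3.67, 6.45 and 5.39 FPKM, and females 1 to 5 had 5.73, 4.69, 6.22, 10.2 and 8.44 FPKM. Females 4 and 5 exceeded every male, and female 2 was the lowest female. These values rest on 72 to 246 reads. Males averaged 5.06 ± 1.01 FPKM and females 7.06 ± 2.23 FPKM (exact permutation p = 0.119), and limma put the log2 fold change at 0.44 ± 0.21 (standard error, 95% interval −0.03 to 0.91, adjusted p = 0.350). Without female 2 the female mean was 7.65 ± 2.07 FPKM and the exact p was 0.0317, while the adjusted p from limma stayed, over the fits lacking 1 rat, between 0.150 and 0.594. Without female 4 the difference in mean FPKM shrank from 2.004 to 1.22. The exact p with a rat left out ran from 0.0317 to 0.246.

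*Fxyd5* (ENSRNOG00000021062, chromosome 1, 89464860 to 89474252, minus strand) was the FXYD gene among the 6 with a lower mean in females. The male rats 1 to 5 had 23.0, 21.3, 21.7, 15.6 and 29.0 FPKM, and females 1 to 5 had 17.4, 30.8, 15.4, 9.34 and 15.2 FPKM. Female 2 was the highest of all 10 rats, and 3 of the other females lay below the lowest male. Males averaged 22.1 ± 4.80 FPKM and females 17.6 ± 7.98 FPKM (exact permutation p = 0.317), and limma put the log2 fold change at −0.41 ± 0.27 (standard error, adjusted p = 0.515). Without female 2 the female mean was 14.3 ± 3.46 FPKM, the difference widened from −4.49 to −7.80 FPKM and the exact p was 0.0238. The limma log2 fold change was then −0.63, with an adjusted p of 0.128, the lowest over the 21 alternatives, which reached 0.776. Leaving out female 4 instead brought the difference to −2.42 FPKM. The exact p with a rat left out ran from 0.0238 to 0.563.

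*Atp12a* (ENSRNOG00000020685, chromosome 15, 36565495 to 36590171, plus strand) was the lowest of the 6 genes and the one with the largest ratio between the sexes. The male rats 1 to 5 had 0.583, 1.23, 1.61, 0.863 and 0.780 FPKM, and females 1 to 5 had 1.37, 3.80, 1.25, 1.94 and 1.54 FPKM. Every female lay above 4 of the 5 males, and female 2 was about 6.52 times the lowest male. It collected 40 to 238 reads per rat. Males averaged 1.01 ± 0.407 FPKM and females 1.98 ± 1.05 FPKM (exact permutation p = 0.0476), and limma put the log2 fold change at 0.86 ± 0.33 (standard error, 95% interval 0.14 to 1.58, adjusted p = 0.226). Without female 2 the female mean was 1.53 ± 0.303 FPKM, the difference in means fell from 0.967 to 0.513 FPKM and the exact p was 0.0794. The exact p rose above 0.05 in 6 of the 10 tests with a rat removed, those without male 1, 2, 4 or 5 or without female 2 or 4, and its highest value was 0.127.

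Per length, the 6 genes fell in the order *Fxyd2*, *Atp1b1*, *Atp1b3*, *Fxyd5*, *Fxyd4* and *Atp12a*, the same in the mean of each sex. Neighbours in this order changed places in 1 rat, female 4, with *Fxyd4* at 10.2 FPKM and *Fxyd5* at 9.34 FPKM. In female 2, *Fxyd4* and *Atp12a* came close, at 4.69 and 3.80 FPKM. The spread between rats of a sex was larger in the 3 genes of lower level than in the other 3. The pooled within-sex SD of log2(FPKM + 0.1) was 0.09 for *Atp1b1* and *Atp1b3*, smaller than in all but 2.84% and 2.75% of the 13363 genes whose mean reached 1 FPKM. It was 0.15 for *Fxyd2*, below the median of 0.22 over those genes. For *Fxyd4*, *Fxyd5* and *Atp12a* it was 0.37, 0.49 and 0.57, above that of 80.0%, 88.5% and 91.7% of the genes. Counting noise is part of the spread of the genes with few reads, and its share was not tested.

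**Figure D2:**
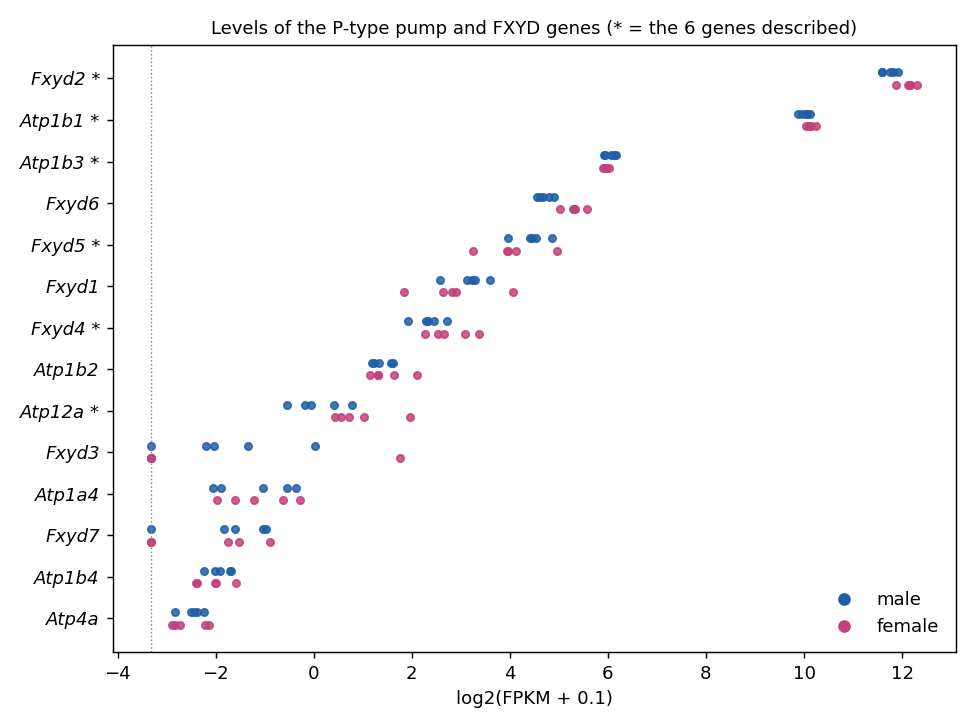
The x axis shows log2(FPKM + 0.1) and each row is 1 gene of the P-type pump and FXYD lists that had a read, ordered by mean, with 1 point per rat (males blue, females pink) and the dotted line at 0 FPKM. *Fxyd2* and *Atp1b1* stand far to the right of all others, and *Fxyd6* is the row in which the points of the sexes are apart.

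RefSeq promoter windows (build GRCr8) were matched by symbol for 4 of the 6 genes, and these 4 are shown. *Fxyd2* had no match, nor did *Atp1b1*, whose spread between rats was level with that of *Atp1b3*. A relation of promoter to spread was not tested. Each window holds the 250 bases before the outermost start site, 5′ to 3′ on the strand of the gene, with capitals marking GGGCGG or its reverse complement CCGCCC, the core of the GC box bound by SP1. The *Atp1b3* window is chr8:105821152-105821401 on the minus strand, the *Fxyd5* window chr1:95404723-95404972 on the minus strand, the *Fxyd4* window chr4:152786046-152786295 on the minus strand and the *Atp12a* window chr15:34558959-34559208 on the plus strand.
Atp1b3: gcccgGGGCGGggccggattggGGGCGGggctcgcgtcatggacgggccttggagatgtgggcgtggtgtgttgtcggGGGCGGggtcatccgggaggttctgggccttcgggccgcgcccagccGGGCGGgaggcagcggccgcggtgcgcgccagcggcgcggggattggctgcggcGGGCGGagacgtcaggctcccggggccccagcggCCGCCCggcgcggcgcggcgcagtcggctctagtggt
Fxyd5: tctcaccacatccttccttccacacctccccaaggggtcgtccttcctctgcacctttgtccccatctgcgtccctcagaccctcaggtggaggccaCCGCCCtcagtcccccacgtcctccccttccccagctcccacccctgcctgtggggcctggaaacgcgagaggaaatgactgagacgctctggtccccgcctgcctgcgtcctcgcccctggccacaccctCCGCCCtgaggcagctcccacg
Fxyd4: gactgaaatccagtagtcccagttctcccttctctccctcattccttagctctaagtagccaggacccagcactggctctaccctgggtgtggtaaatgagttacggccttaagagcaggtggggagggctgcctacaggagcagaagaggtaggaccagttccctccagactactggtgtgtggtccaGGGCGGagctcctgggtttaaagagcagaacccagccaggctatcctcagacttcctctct
Atp12a: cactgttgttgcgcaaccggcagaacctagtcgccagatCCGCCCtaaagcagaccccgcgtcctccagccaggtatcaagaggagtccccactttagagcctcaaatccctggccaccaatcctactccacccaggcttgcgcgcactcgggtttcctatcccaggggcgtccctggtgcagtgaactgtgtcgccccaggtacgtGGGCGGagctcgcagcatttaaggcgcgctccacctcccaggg
*Atp1b3* had 6 such sites and 38 CpG dinucleotides, more CpG than 98.3% of the 33469 promoter windows of the same length. *Fxyd4* had 1 site and 2 CpG, *Fxyd5* 2 sites and 12 CpG, and *Atp12a* 2 sites and 16 CpG, where the median window had 5 CpG. A GC box core on either strand occurred in 30.5% of all windows. TATAAA and TGTTCT, the second being a half-site bound by the glucocorticoid, mineralocorticoid, androgen and progesterone receptors but not that of the estrogen receptor, which was not searched, were searched on both strands and matched none of the 4 windows, against 12.9% and 17.5% of all windows. *Fxyd5* and *Atp12a* each have a second, inner start site in the table, whose window held no GC box core, and that of *Atp12a* held 1 TGTTCT. A match is a description of letters and does not show that a factor is bound.

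Of 9 other genes of the P-type pump and FXYD families, 7 were tested and 1, *Fxyd6*, had an adjusted p of at most 0.05. *Fxyd6* (ENSRNOG00000016412, chromosome 8, 49676540 to 49703419, plus strand) encodes phosphohippolin, a pump regulator best known from brain, and ends 7057 bases before *Fxyd2* on the same strand. In males 1 to 5 it stood at 27.6, 24.4, 23.5, 25.6 and 29.7 FPKM, and females 1 to 5 had 32.3, 47.8, 39.7, 40.1 and 38.7 FPKM. Every female lay above every male. Males averaged 26.2 ± 2.49 FPKM and females 39.7 ± 5.50 FPKM (exact permutation p = 0.00794, the smallest p that 5 rats against 5 allow), and limma put the log2 fold change at 0.59 ± 0.11 (standard error, adjusted p = 0.0138). Female 2 was again the highest rat, and without it females averaged 37.7 ± 3.67 FPKM. The call held in 20 of 21 alternatives, among them the 10 fits lacking 1 rat (limma adjusted p from 0.00684 to 0.0439), and reached an adjusted p of 0.0848 in the other.

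*Atp1a4*, an alpha subunit of sperm, was under 1 FPKM in each rat. *Atp4a* of the gastric H,K-ATPase was at most 0.127 FPKM, and *Atp4b* is listed at 0 in all rats. *Fxyd1*, which encodes phospholemman, ran from 5.86 to 12.0 FPKM in males and from 3.50 to 16.7 FPKM in females (exact permutation p = 0.714), highest in female 2. *Fxyd3* had 0 to 6 reads in males, 21 in female 2 and 0 in the other females, and it shares 413 bases with *Lgi4* on the other strand. Leaving out female 2 took the female mean of *Fxyd1* from 8.12 to 5.99 FPKM, where males averaged 9.08 FPKM (exact permutation p = 0.0556). Its limma log2 fold change then went from −0.31 to −0.61 (adjusted p = 0.206).

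*Fxyd2* took up 97.7% to 98.8% of the summed FPKM of the 7 FXYD genes in each rat, and 89.7% to 93.2% of their reads, which involve no division by length. The mean FPKM share was 98.2 ± 0.279% in males and 98.4 ± 0.388% in females (exact permutation p = 0.349). *Fxyd4* held 0.145 ± 0.0250% in males and 0.153 ± 0.0381% in females (exact permutation p = 0.690). *Fxyd5* ran from 0.182% to 0.823%. Of 6 ratios between genes of the pump compared between the sexes, which were written after the values were seen, *Fxyd2* per *Atp1b1* was 3.30 ± 0.444 in males and 4.002 ± 0.362 in females (exact permutation p = 0.0317, or 0.143 with Benjamini-Hochberg adjustment across these 6). *Atp1b1* per *Atp1b3* was 15.9 ± 1.74 and 18.1 ± 1.25 (exact permutation p = 0.0476, adjusted 0.143). None of the 6 ratios passed after adjustment.

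A list of 17 regulators of the pump and of routes by which sodium enters the cell gave 16 tested rows, *Nr3c1* being listed under 2 identifiers. None had an adjusted p of at most 0.05 in the limma fit, and the median log2 fold change was 0.20. The unadjusted limma p was under 0.05 in 4 rows with a higher and 2 with a lower mean in females. Over all 17631 genes tested these counts were 1353 and 1422. *Sik1* (chromosome 20, 10668411 to 10680283), a salt-inducible kinase that acts on the pump when cell sodium rises, came nearest, males averaging 7.22 ± 2.84 FPKM and females 2.97 ± 1.03 FPKM. In limma its log2 fold change was −1.22 ± 0.29 (standard error, adjusted p = 0.0554), and 6 of 21 alternatives brought the adjusted p to at most 0.05, limma-voom and a filter at a mean of 1 FPKM among them. *Scnn1a*, which encodes the alpha subunit of the sodium channel ENaC, had a limma log2 fold change of 0.62 (adjusted p = 0.0869). Its limma adjusted p was at most 0.05 in 1 of 21 alternatives, 0.00880 without male 1, and reached 0.174 in another. *Slc12a3*, the thiazide-sensitive cotransporter, *Scnn1b* and *Slc12a1*, the furosemide-sensitive cotransporter, had log2 fold changes of 0.47, 0.42 and 0.35 (adjusted p from 0.206 to 0.243). *Scnn1b* overlaps *Cog7* on the other strand over 26743 bases. *Sgk1*, a kinase induced by aldosterone, stood at −0.48 on the same scale (adjusted p = 0.284).

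**Figure D3:**
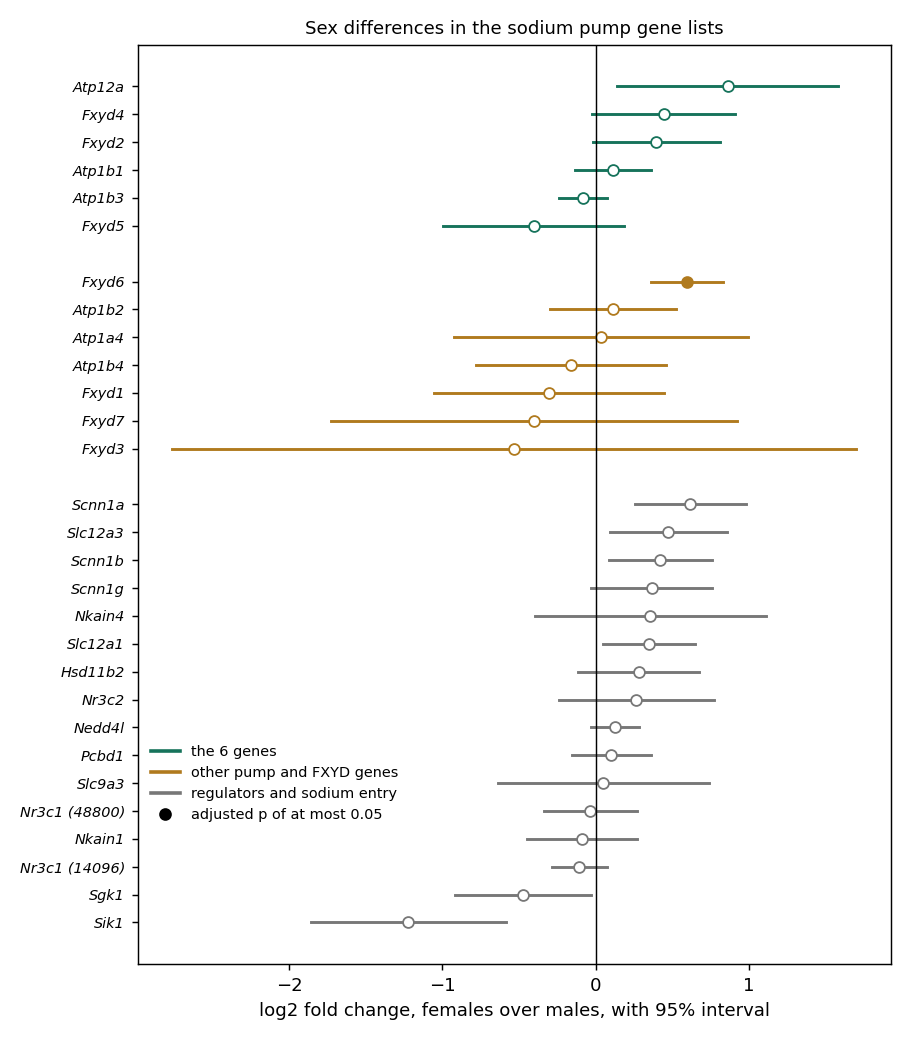
The x axis shows the log2 fold change of females over males from limma with its 95% interval, 1 row per tested gene, in 3 colour groups, with filled points at an adjusted p of at most 0.05. *Fxyd6* is the filled point, and among the 6 genes the interval of *Atp12a* alone lies wholly above 0, before adjustment.

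Markers of the nephron segments that hold these proteins are given beside them. Of all 17631 genes tested, 8599 had a positive log2 fold change, and 15.7% had an unadjusted limma p under 0.05 in either direction. All 7 genes of the intercalated cell list had a positive log2 fold change (median 0.57) with an unadjusted p under 0.05, and 1 had an adjusted p of at most 0.05, *Atp6v0d2* of the proton pump. The summed FPKM of that list was 194 to 291 in males and 290.4 to 437 in females. All 7 genes of the principal cell list, the cells in which *Fxyd4* is known to act, were positive too (median 0.41, 1 past the adjusted threshold, *Avpr2*), with sums of 317 to 508 and 366 to 572 FPKM, though *Aqp3* was nearly level (0.02, and −0.07 to 0.13 with a rat left out). The distal convoluted tubule list had 4 of 4 tested genes positive (median 0.42, 1 past the threshold, *Calb1*), and *Pvalb* is listed at 0 in all rats. The thick ascending limb list had 5 of 6 positive (median 0.25), with *Kcnj1* past the threshold on the higher and *Ptger3* on the lower side. In the proximal tubule list 5 of 7 were positive (median 0.20) and *Cubn* was past the threshold, while *Slc22a6*, an organic anion transporter, had a lower mean in females, at an unadjusted limma p of 0.0113 (log2 fold change −0.53, adjusted p = 0.160). The signs of *Slc34a1*, *Slc5a2* and *Slc5a12* turned with a rat left out. The podocyte list had 4 of 4 positive and the endothelium list 3 of 5, with none past the threshold, and the sign of *Kdr* turned with a rat left out. With a rat left out, *Kcnj1* kept its call in all 10 fits, while *Calb1* lost it in 5, *Atp6v0d2* in 7 and *Avpr2*, *Cubn* and *Ptger3* in 8 each, with limma adjusted p up to 0.125. The part of cell composition in the higher means of *Fxyd2*, *Fxyd4* and *Atp12a* was not tested.

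*Fxyd5* was highest in each sex, and lowest over all 10 rats, in the same rats as each of the 5 leukocyte markers. Male 5 and female 2 had the highest *Fxyd5* of their sex and the highest sums of 5 leukocyte genes, 1999 and 1705 FPKM, and female 4 had the lowest of both, with 789 FPKM against 953 to 1705 in the other females. The stromal sum, led by *Dcn*, was 270 FPKM in male 5, 233 FPKM in female 2 and 66.9 FPKM in female 4. *Dcn* itself had the same highest and lowest rats as *Fxyd5*, at 189, 140 and 32.8 FPKM. *Fxyd1* had them too, at 12.0, 16.7 and 3.50 FPKM. *Pdgfrb* and *Acta2* were highest in female 2 among females, but not in male 5 among males. Male 5 was the lowest male for *Col1a1* (24.2 FPKM) and *Col1a2* (12.8 FPKM), and female 2 was not the highest female for either. *Ptprc*, the pan-leukocyte phosphatase CD45, was at 13.5 FPKM in male 5, 14.2 FPKM in female 2 and 3.996 FPKM in female 4. Of the 5 leukocyte genes, 4 had a negative log2 fold change and *Cd74* was level at 0.00 (median −0.44), none with an adjusted p of at most 0.05 or an unadjusted p under 0.05 in limma. Without female 2, *Ptprc* averaged 6.86 FPKM in females and 10.7 FPKM in males (exact permutation p = 0.0397, from 0.262 with it). The other leukocyte genes then had an exact permutation p from 0.0556 (*Cd68*) to 0.524 (*Cd74*). All 5 stromal genes had a negative log2 fold change (median −0.80), 4 with an unadjusted p under 0.05 and none past the adjusted threshold, the sums being 200.3 to 270 FPKM for males and 66.9 to 233 FPKM for females. Without female 2 the highest female sum was 172 FPKM, below every male. *Acta2* of smooth muscle was nearly level, at a log2 fold change of −0.15 that ran from −0.39 to 0.07 with a rat left out. Whether these cells contributed to the *Fxyd5* values was not tested.

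*Atp12a* was highest in female 2, the rat that also had urothelial RNA and the highest sum of intercalated cell markers. The 5 urothelial genes found in the table summed to 12.8 FPKM in female 2, while males had 0.200 to 0.422 FPKM and the other females 0.378 to 0.763 FPKM. *Upk3a*, a uroplakin of the urothelial surface, was at 4.64 FPKM in female 2 and is listed at 0 in the other 9 rats. The intercalated cell sum was 437 FPKM in female 2 and at most 399 FPKM in the other females. Podocyte and endothelium sums were also highest in female 2, at 187 and 142 FPKM, against at most 176 and 121 FPKM in the other rats. *Foxi1*, a transcription factor of intercalated cells, stood at 42.0 FPKM in female 2 and at 17.4 to 22.5 FPKM in the other females, and *Atp6v1g3* of the proton pump at 142 and 74.8 to 95.9 FPKM, while *Slc4a1*, *Slc26a4*, *Slc4a9* and *Atp6v1b1* were not highest in this rat. The 3 markers of distal colon, another known site of *Atp12a*, summed to at most 0.207 FPKM in each rat. The other 4 females also lay above 4 of the 5 males in *Atp12a*, at 1.25 to 1.94 FPKM. The part of these cell types in the value of female 2 was not tested.

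**Figure D4:**
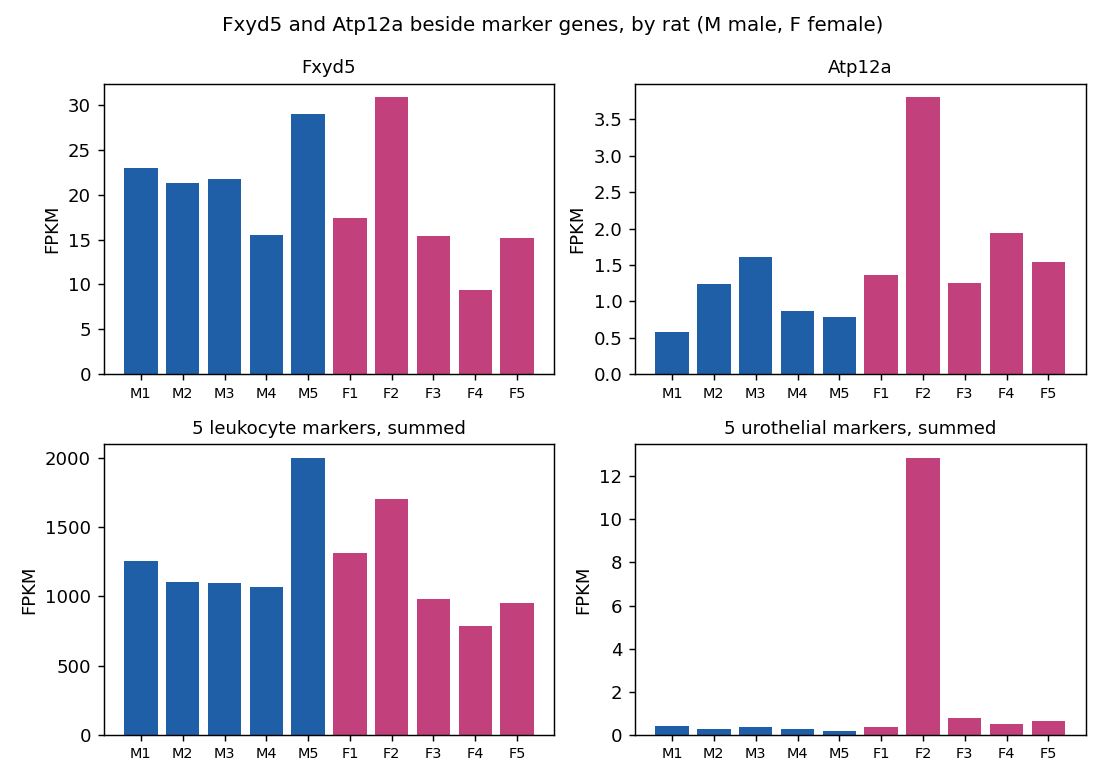
Bars show FPKM from 0 upwards in each of the 10 rats (M1 to M5 males, F1 to F5 females), with *Fxyd5* above the sum of 5 leukocyte markers and *Atp12a* above the sum of 5 urothelial markers. M5 and F2 are the highest of their sex in both left panels, and F2 is the highest in both right panels, at 3.80 and 12.8 FPKM.

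The genes whose pattern was most like that of each gene were sought among 13362 others whose mean reached 1 FPKM, by Pearson's r over the 10 rats of log2(FPKM + 0.1) centred within each sex. *Fxyd5* had the closest matches, *Rerg*, *Gstm1* and *Casp1*, with r of 0.986, 0.982 and 0.981, and without female 2 of 0.975, 0.961 and 0.974. *Fxyd2* was most like *Hmox2*, *Rsl24d1* and *Psmc2* (r of 0.939, 0.934 and 0.926). *Fxyd4* was most like *Abca4*, *Ppp6r2* and *Nudt8* (0.936, 0.919 and 0.906). For *Atp1b1* these were *Ppp1r7*, *Smpdl3b* and *Garnl3* (0.899, 0.896 and 0.892), and for *Atp1b3* they were AABR07069227.1, *Gyg1* and *Prpf38a* (0.969, 0.950 and 0.944). The matches of *Atp12a*, *Ubxn7*, *Elovl5* and *Gabpb1* (0.927, 0.905 and 0.894), leaned on female 2, and without it r was 0.845, 0.809 and 0.772. These are descriptions over 10 libraries that share their preparation and scaling, with the highest values picked from many genes. None of the 6 genes was among the 3 closest matches of another.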

How the data were processed

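The 10 libraries, 1 per PCK rat, came from renal cortex and were grouped by the sex in the sample titles (5 male, 5 female). The submitters' processing notes name fastp, HISAT2 2.0.5, StringTie 1.3.3b and featureCounts 1.5.0-p3, and the methods name Ensembl Rnor_6.0. Use of strand is not given in the sources used here. The authors deposited FPKM per gene, which were used as they stand. Times the gene length, each value was a whole multiple (tolerance 0.001) of 1 step per library, which gave the reads. Such reads carry counting error and are not independent molecules.

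limma 3.58.1 (eBayes with trend, R 4.3.3) was fitted on log2(FPKM + 0.1) for genes whose mean reached 0.1 FPKM, with Benjamini-Hochberg adjustment. Single values had an exact permutation test, two-sided (Python 3.11.15). limma-voom was run on the reads with factors by the trimmed mean of M-values. Both procedures were tested on simulated data. The 6 genes and all lists (other pump and FXYD genes, regulators, 11 marker lists) were chosen with earlier results of these data known, and some genes of the lists and some ratios are not reported here. Genes named are the 6, up to 5 per list with the lowest p or a defining role, and the 3 closest matches of each. In the text *Sgk1*, *Fxyd3*, *Atp4a*, *Atp4b*, *Atp1a4*, *Atp1b2* and the markers named for a level or turning value go beyond that count and were added after their values were seen. Each library differed from every other by a chi-square of at least 9.71 per degree of freedom, so all 10 were kept as separate samples. *Trp63* was not analysed here, as no symbol of the table matched it. Promoters are from RefSeq (GRCr8). Alternatives were other pseudocounts, filters, scalings and variance models, the replicate block, limma-voom and leaving out each library.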

Additional observations from a re-analysis of the deposited data

Results flagged for a closer look

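Among 34 sets of 5 values (each listed pump and FXYD gene but *Atp4b*, which is listed at 0, and 3 shares, within each sex), 2 had a rat farther from the others than Dixon's test allows, and chance alone flags about 5% of sets. Female 2 had 3.80 FPKM of *Atp12a*, against 1.25 to 1.94 FPKM in the other females, so the gap took up 0.728 of the range. Female 2 also had 3.30 FPKM of *Fxyd3*, from 21 reads, while the other females had none. Urothelial genes summed to 12.8 FPKM in this rat and to at most 0.763 FPKM in the others, and intercalated cell genes summed to 437 FPKM in it and to at most 399 FPKM in the others. Podocyte and endothelium genes also had their highest sums in this rat. The part of these sets of cells in these values was not tested.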

How the results depend on the processing

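Of the 6 genes, 0 had an adjusted p of at most 0.05 in any of the 21 alternative limma fits, and all 6 kept the sign of the log2 fold change in each. The counts over all genes, 109 higher and 123 lower, became 65 and 72 with a pseudocount of 1 FPKM and 223 and 201 with the adjusted p alone. With each rat left out, they ran from 82 to 114 and from 89 to 148. With each rat left out, the difference in mean FPKM by exact permutation ran from 60.1 to 104 for *Atp1b1*, from 1.22 to 2.60 for *Fxyd4*, from −7.80 to −2.42 for *Fxyd5* and from 0.513 to 1.15 for *Atp12a*. The difference in the *Atp1b1* share ran from 0.460 to 0.888 percentage points, and that in the *Fxyd4* share from −0.00335 to 0.0207, negative without female 4.

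Scaling by total reads moved the median of all genes by −0.07. Signs of log2 fold changes turned under quantile normalization for *Pcbd1* (−0.00938), with scaling by total reads for *Atp1a4* (−0.0226) and *Slc9a3* (−0.0258), and with a pseudocount of 1 FPKM for *Fxyd3* (from −0.53 to 0.0867). With a rat left out, ranges crossed 0 for *Atp1a4* (−0.184 to 0.242), *Atp1b2* (−0.0417 to 0.199), *Nkain1* (−0.179 to 0.00186), *Nr3c1* (ENSRNOG00000048800, −0.136 to 0.0708) and *Slc9a3* (−0.222 to 0.216). The cause was not tested.

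Replicate numbers did not pair the rats. The correlation of deviations between rats of 1 number was −0.10 to 0.07, and 1 of 5 males correlated best with its own number. With the replicate block, 89 genes were higher and 87 lower. *Fxyd6*, the only call among the listed pump, FXYD and regulator genes in the main fit, then had a limma adjusted p of 0.0848. *Sik1* passed at a limma adjusted p of 0.0414. For the shares, blocked pairs of 5 rats cannot give an exact p under 0.0625, the value of the *Atp1b1* share, whose difference was 0.723. Of the 6 genes, *Atp12a*, *Fxyd4* and *Fxyd5* had the fewest reads, 40 to 434 per rat.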
